A study of Mus musculus with 4 samples.

Results

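Inflammasome and gasdermin genes were followed across the cell types of 4T1 tumours. The 8 genes, of 55450 in the deposited matrix, were found by symbol: the sensors Nlrp3, Aim2 and Naip5, the adaptor Pycard (the protein ASC), the caspases Casp1 and Casp4, and the pore-forming gasdermins Gsdmd and Gsdme. In this study 4T1 cells, a mouse mammary carcinoma line, were grown in the right flank of female BALB/c mice aged 6 to 8 weeks. Cells described as sorted from the tumours for CD45 went through 10x Genomics droplets for 3′ single-cell sequencing. The sample records name 4 samples, all from tumours that received near-infrared light of 980 nm on days 8, 9 and 10 and were collected on day 13: 2 from mice given PBS on day 7, 1 from mice given the nanosystem TIOs, and 1 left out of the groups because its title reads PBS and its protocol reads TIOs. The number of mice behind each sample is not known here. The barcodes carry 4 suffixes, 1 for each library, and no source used here ties a suffix to a sample. The libraries are therefore shown apart, as libraries of unknown treatment, without a comparison of treatments and without p-values.

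An inflammasome is a protein complex that forms in the cytosol when a sensor detects microbial products or damage. Sensors such as NLRP3 and AIM2 recruit ASC, which gathers and activates caspase-1, and NAIP proteins do so through NLRC4 when they bind bacterial flagellin or secretion needles. Caspase-1 matures IL-1β and IL-18 and cuts gasdermin D, whose freed part opens pores in the plasma membrane, while mouse caspase-11, the product of Casp4, is activated by cytosolic lipopolysaccharide and cuts gasdermin D directly. Gasdermin E is cut by caspase-3 and links apoptosis to lytic death.

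The libraries held 6902 to 9149 barcodes and 69255999 to 108646352 UMIs (unique molecular identifiers, a count of captured RNA molecules). Of 33064 barcodes, 32133 had at least 300 genes and at most 15% mitochondrial UMIs, and 27865 of these fell into 16 marker gates, of which the B cell gate (27 cells) was too small to use. A total of 101 barcode sequences of 32963 occurred in more than 1 library. The cells, described as sorted for CD45, were not immune cells alone. Ptprc, which encodes CD45, had a UMI in 66.7% of neutrophil-gate cells and 88.1% of monocyte-gate cells, but in 14.1% of 4110 tumour or epithelial cells and 29.8% of 4254 fibroblasts. Whether the deposited libraries are the sorted cells was not tested. The tumour gate came almost wholly from library 1 (3852 cells, against 256, 0 and 2) and the monocyte gate mostly from library 4 (3234 cells, against 119, 326 and 498). Levels are given as CPM, the UMIs of a gene for each 1000000 UMIs in a gate, pooled over libraries or for each, with exact 95% Poisson intervals that reflect counting error alone. The neutrophil gate held S100a8 at 31030 CPM against 271 CPM in the other gates. S100a8 is among the markers that define this gate, so the difference describes the gate and is not a check of it.

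The genes divided between neutrophils and mononuclear phagocytes. Nlrp3, Casp4, Gsdme and Aim2 were highest in the neutrophil gate (9033 cells), whereas Pycard, Casp1, Gsdmd and Naip5 were highest in the monocyte gate (4177 cells). The leading gate was the same in every library for 5 genes: neutrophils for Nlrp3, Casp4 and Gsdme, and monocytes for Casp1 and Gsdmd. These leading gates were not set against those of all genes, so whether such a division is unusual was not tested. Neutrophils made up 28.1% of cells but 5.14% of UMIs, so a high CPM there belongs to small transcriptomes, and counts per cell are given separately. Sequence upstream of the starts of Nlrp3 and Casp4, which led in neutrophils, and of Pycard, which did not, is shown as context (RefSeq, GRCm38.p6, 5′ to 3′ on the strand of the gene, without bases inside the GENCODE gene). Capitals mark matches on either strand to a loose pattern for κB sites (GGG and CC with any 5 bases between them) or to GAGGAAGT, a core bound by PU.1:

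Nlrp3, chr11:59541319-59541567, + strand: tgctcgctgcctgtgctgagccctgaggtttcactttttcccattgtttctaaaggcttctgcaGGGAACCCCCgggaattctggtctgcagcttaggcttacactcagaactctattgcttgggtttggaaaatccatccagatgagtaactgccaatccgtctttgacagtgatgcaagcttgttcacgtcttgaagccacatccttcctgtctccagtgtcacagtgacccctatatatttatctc
Casp4, chr9:5308599-5308827, + strand: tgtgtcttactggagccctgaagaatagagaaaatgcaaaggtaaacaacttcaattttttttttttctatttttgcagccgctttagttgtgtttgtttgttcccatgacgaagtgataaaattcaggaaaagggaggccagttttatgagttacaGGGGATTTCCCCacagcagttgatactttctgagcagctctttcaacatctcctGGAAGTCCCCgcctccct
Pycard, chr7:127993868-127994117, - strand: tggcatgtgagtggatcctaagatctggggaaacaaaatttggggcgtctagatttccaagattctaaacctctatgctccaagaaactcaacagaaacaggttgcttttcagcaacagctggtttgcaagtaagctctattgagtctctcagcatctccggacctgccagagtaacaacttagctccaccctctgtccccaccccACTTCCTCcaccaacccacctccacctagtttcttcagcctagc

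Promoters were listed for 7 of the 8 genes, in 9 entries. The κB pattern lay in 6 of these 9 windows of 250 bases before the start, and in 45.8% of 32851 mouse windows, so it is a common pattern. It was found in windows of Nlrp3, Casp4 and Gsdme, which led in neutrophils, and also of Casp1 and Naip5, which led in monocytes. A second Nlrp3 entry, inside the GENCODE gene, held no match. The windows of Gsdme and Aim2 also lie wholly inside their GENCODE genes. Casp4 had 2 entries, which overlap and hold the same matches. The Casp4 window shown held 3 overlapping matches in a single stretch, GGGGATTTCCCC, and 2 further matches nearer the start, of which the last lies inside the GENCODE gene and is not printed. The PU.1 pattern lay in the windows of Pycard, which led in monocytes, and of Aim2, which led in neutrophils, and in 2.44% of all windows. An interferon-response pattern, 2 copies of GAAA with any 2 bases between them, was in none of the 9 windows and in 2.98% of all windows.

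**Figure D1:**
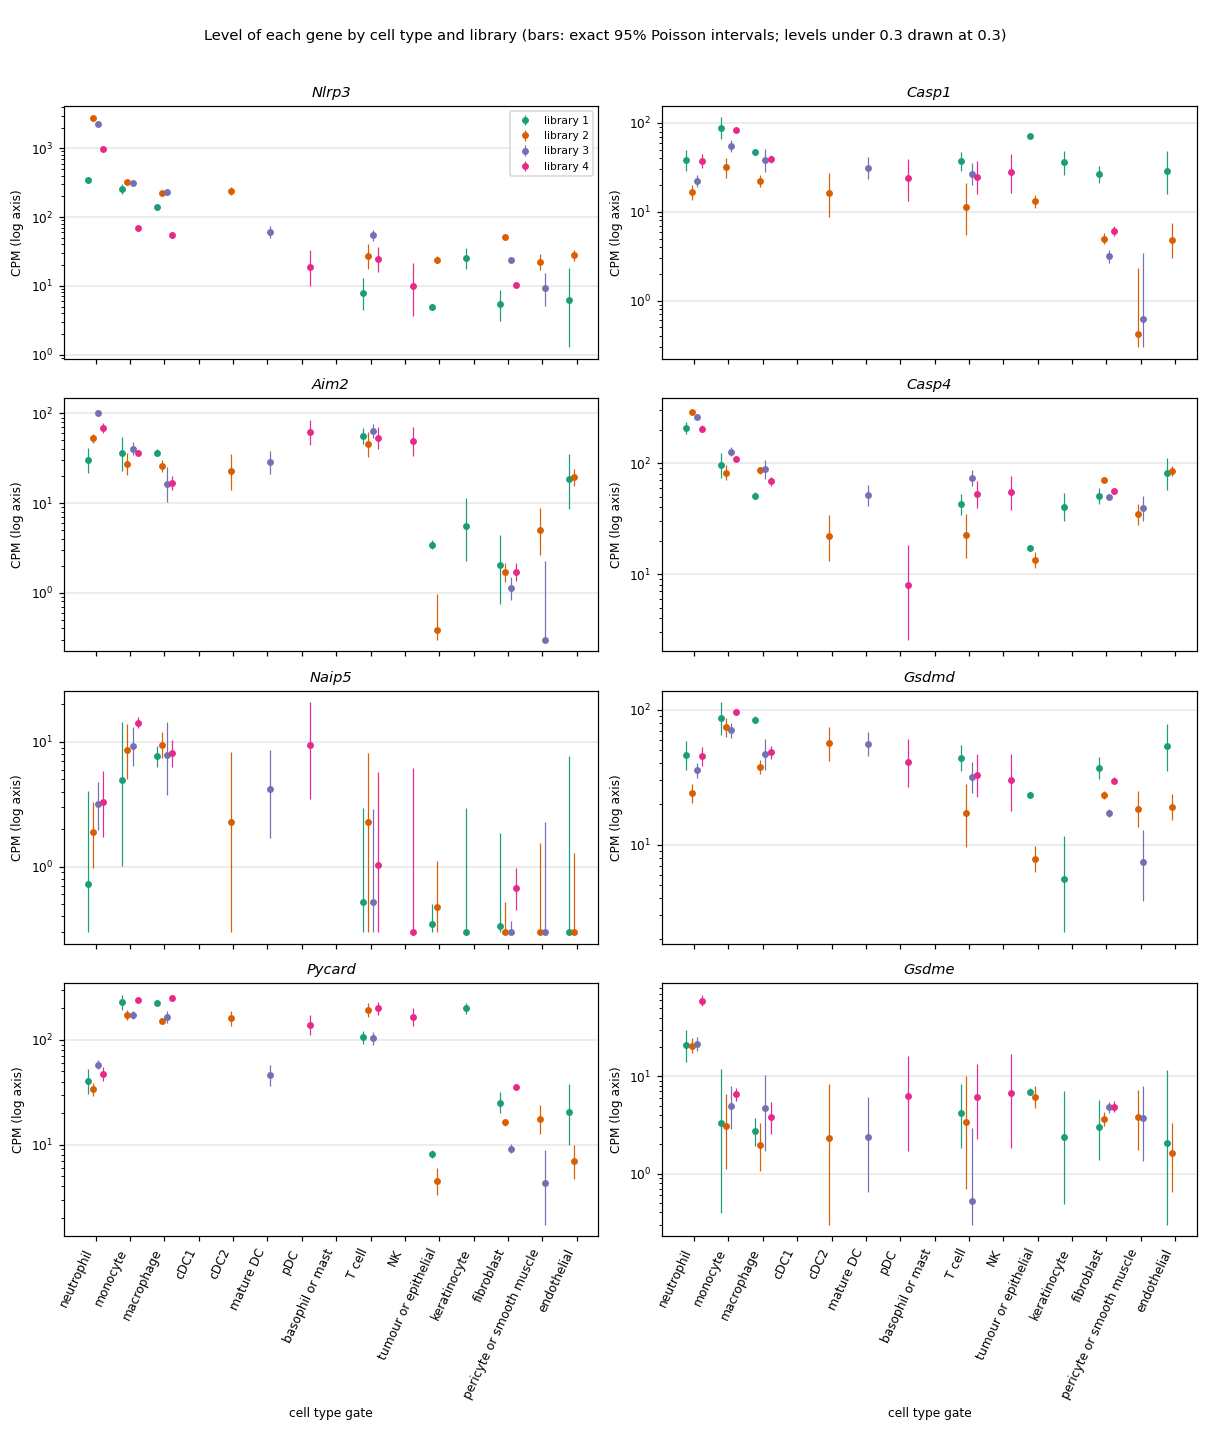
Level of each gene in CPM (log axis) by cell type gate, for gates with at least 50 cells in the library. Points are libraries, bars are exact 95% Poisson intervals, and levels under 0.3 CPM are drawn at 0.3. Nlrp3, Casp4 and Gsdme are highest at the neutrophil gate in each of the 4 libraries, and Casp1 and Gsdmd at the monocyte gate.

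Nlrp3 (chr11:59541568-59566956, + strand) was concentrated in neutrophils. In neutrophils it stood at 346 CPM in library 1, 2771 in library 2, 2280 in library 3 and 982 in library 4. Libraries 2 and 3 were the high pair, library 1 was the lowest, and no library overlapped another within its counting interval. Neutrophils gave 66.2% of all 56303 Nlrp3 UMIs. The basophil or mast gate came next with 604 CPM (95% interval 520 to 698), from 79 cells spread over 4 libraries with fewer than 50 in each, followed by cDC2 with 166 CPM, macrophages with 143 and monocytes with 114. In monocytes the libraries read 257, 321, 317 and 70.1 CPM, and in macrophages 142, 224, 232 and 54.5 CPM, so library 4 was the lowest in both gates while library 1 was the lowest in neutrophils. The pooled order of monocytes and macrophages was reversed inside every library: monocytes were higher in each of the 4, by 1.29-fold to 1.81-fold. The pooled monocyte level was drawn mostly from library 4.

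Neutrophil RNA can reach other droplets, and S100a8 was used as a rough scale for it. S100a8 is also a marker of the neutrophil gate, which can hold its level down in the other gates. The scale did not hold in every gate. In keratinocytes of library 1 the S100a8 share gives 73.4 CPM of Nlrp3, against 25.5 measured. How much of any level came from neutrophil RNA was not tested. In library 2 fibroblasts held 1.08% of the neutrophil S100a8 level, and the same share of neutrophil Nlrp3 is 29.9 CPM, against 50.9 measured. In library 3 the corresponding figures were 18.0 and 23.7 CPM. In library 4 they were 4.69 and 10.1 CPM, and in library 1 they were 0.715 and 5.38 CPM, so the measured level lay above the share in each library. Tumour cells also lay above their share, at 4.89 against 0.847 CPM in library 1 and 24.0 against 15.2 CPM in library 2. Such an excess therefore did not set fibroblasts apart from tumour cells. Monocytes of library 2 measured 321 CPM against 48.2 at their S100a8 share, and macrophages 224 against 36.4. Basophil or mast cells measured 604 CPM against 18.3. With every cell thinned to 1000 UMIs, an Nlrp3 UMI was present in 68.0% of neutrophils, 28.4% of basophil or mast cells, 13.3% of macrophages, 11.2% of monocytes, 5.07% of fibroblasts, 2.91% of T cells and 0.744% of tumour cells, a cell type outside the myeloid lineage. The tumour gate is nearly all of library 1, where neutrophil Nlrp3 was lowest, so its share as a background was read within libraries: in library 1 it was 0.583% of tumour cells, against 11.7% of macrophages and 26.8% of neutrophils, and in library 2 it was 3.13% of tumour cells, against 9.98% of fibroblasts, 19.2% of macrophages, 26.3% of monocytes and 81.6% of neutrophils. Fibroblasts of library 1, at 0.562%, lay at the tumour share of that library. Without thinning the shares were 77.9% in neutrophils (median depth 1813 UMIs) and 10.1% in tumour cells (median depth 19262 UMIs).

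Aim2 (chr1:173350879-173466040, + strand), a sensor of cytosolic DNA, was spread over lymphoid and myeloid cells. Neutrophils held 72.8 CPM (68.9 to 76.8) and cDC1 72.1 CPM (57.2 to 89.6), which did not differ within their intervals, followed by T cells at 56.9, NK cells at 55.6 and pDC at 54.5 CPM. In neutrophils the libraries read 30.3, 52.6, 102 and 68.3 CPM, with library 3 the highest and library 1 the lowest. T cells varied less, at 56.4, 45.4, 64.2 and 53.7 CPM, and exceeded neutrophils in library 1. Fibroblasts held 1.52 CPM and tumour cells 3.08 CPM. The gene overlaps Cadm3 on the other strand in the annotation.

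Naip5 (chr13:100211739-100246323, - strand) was the rarest of the 8, with 968 UMIs in all. Monocytes held 13.2 CPM (12.0 to 14.5), macrophages 8.22 CPM (7.23 to 9.30) and neutrophils 2.58 CPM (1.89 to 3.43). In monocytes the libraries read 4.91, 8.66, 9.30 and 14.2 CPM, and in macrophages 7.65, 9.50, 7.82 and 8.15 CPM. Monocytes were higher in libraries 3 and 4, but in library 3 the ratio of 1.19 had an interval that held 1 (0.570 to 2.71). Their lead therefore rested on library 4, at 1.75-fold (1.33 to 2.32). Naip5 lies in a cluster with near-identical copies, and reads that fit several copies are dropped by the counting, so its level is uncertain. Its relative Naip2 was at 32.7 CPM in monocytes, 22.4 in macrophages and 18.8 in neutrophils. Nlrc4, the partner through which NAIP proteins act, was at 6.21 CPM in monocytes, 7.20 in macrophages and 2.08 in neutrophils.

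Pycard (chr7:127989708-127993867, - strand) was low in neutrophils and high in most other leukocytes. Neutrophils read 40.4, 33.7, 58.0 and 47.5 CPM in the 4 libraries, against 225, 152, 167 and 252 CPM in macrophages and 228, 174, 173 and 242 CPM in monocytes. The ranges did not overlap, and macrophages exceeded neutrophils by 2.87-fold to 5.57-fold. T cells (135 CPM), NK cells (143 CPM), cDC2 (162 CPM) and keratinocytes (200 CPM) were also above neutrophils, and tumour cells were the lowest of all gates at 7.72 CPM. In library 2 the T cell gate led, at 193 CPM from 85 cells. Pycard overlaps Gm45205 on the other strand.

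Casp1 (chr9:5298517-5307265, + strand), the protease of canonical inflammasomes, was highest in monocytes, at 88.4, 31.6, 55.2 and 83.8 CPM, with library 2 the lowest. Macrophages read 47.6, 22.5, 38.3 and 39.4 CPM, and monocytes exceeded them in each library, by 1.40-fold to 2.13-fold. Neutrophils read 38.3, 16.5, 22.3 and 37.5 CPM. Tumour cells held 71.0 CPM in library 1 and 13.2 CPM in library 2 and, being large and many, gave 47.5% of all Casp1 UMIs. Fibroblasts read 26.6 CPM in library 1 and 3.15 to 6.08 in the others, and endothelial cells 29.0 CPM in library 1 against 4.84 in library 2. Some or all of the interferon-inducible genes of the pathway list were highest in the library where Casp1 was highest, depending on the gate. All 6 (Gbp2, Gbp3, Gbp5, Gbp7, Irf1 and Zbp1) were highest in library 1 in tumour cells, in fibroblasts and in endothelial cells. For tumour and endothelial cells only libraries 1 and 2 had enough cells to compare. In T cells Casp1 was also highest in library 1 (36.9 CPM), as was Irf1, but the 4 Gbp genes were highest in library 3 and Zbp1 in library 4. Casp1 was highest in library 1 in monocytes, macrophages and neutrophils as well, narrowly in neutrophils (38.3 against 37.5 CPM in library 4). Of the 6 genes, all but Zbp1 were highest in library 1 in monocytes. In macrophages the 4 Gbp genes were highest there, and in neutrophils Gbp2, Gbp7 and Irf1. Gbp2, a guanylate-binding protein, stood at 159 CPM in tumour cells of library 1 against 33.1 in library 2, at 70.7 CPM in fibroblasts of library 1 against 17.8 to 28.4 in the others, and at 176 CPM in endothelial cells of library 1 against 29.3 in library 2. Their part in the Casp1 difference was not tested.

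Casp4 (chr9:5308828-5336783, + strand) was led by neutrophils with little spread between libraries, at 208, 289, 263 and 205 CPM. Macrophages read 51.2, 86.2, 88.4 and 68.5 CPM, below every neutrophil value, and neutrophils exceeded them by 2.98-fold to 4.06-fold. Monocytes held 109 CPM, endothelial cells 81.7, fibroblasts 58.0 and tumour cells 16.8 CPM, while pDC (8.72 CPM) and cDC1 (11.6 CPM) were the lowest. Its level in fibroblasts (49.2 to 70.9 CPM) lay above the 0.430 to 3.11 CPM that their S100a8 share of neutrophil RNA gives. Nlrp3 in fibroblasts also lay above its share in each library. The source of this RNA was not tested. Casp4 lies directly downstream of Casp1.

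Gsdmd (chr15:75862327-75867408, + strand) had a profile closer to that of Casp1 than to that of Casp4. Monocytes read 86.8, 74.3, 70.3 and 97.1 CPM, macrophages 84.6, 37.7, 46.9 and 48.4 CPM, and neutrophils 46.2, 24.0, 35.6 and 45.2 CPM. Monocytes and neutrophils did not overlap, whereas macrophages and neutrophils did. Tumour cells held 23.5 CPM in library 1 and 7.88 CPM in library 2. Across 31 profiles of a cell type in a library, Pearson's r of log2(CPM + 10) was 0.67 between Gsdmd and Casp1 and 0.34 between Gsdmd and Casp4, as a description, since profiles of a library share its depth and its mice. Between Gsdmd and Naip5 it was 0.68, so Casp1 was not the nearest of the 8 genes.

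Gsdme (chr6:50188888-50263862, - strand) was scarce, with 2242 UMIs in all, and was highest in neutrophils at 28.8 CPM (26.4 to 31.4). The libraries read 20.9, 20.7, 21.6 and 60.0 CPM, so libraries 1 to 3 were alike and library 4 stood above them. No other gate exceeded 6.83 CPM, the level of tumour cells (6.92 CPM in library 1 and 6.17 in library 2), and macrophages held 2.89 CPM. Gsdme overlaps Mpp6 on the other strand. The other gasdermins of the pathway list were found mainly in the 113 keratinocytes of library 1, with Gsdmc at 27.1, Gsdmc2 at 39.9 and Gsdmc4 at 13.6 CPM, although reads may be split among copies of the Gsdmc family.

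Neutrophils and macrophages were then compared for all genes, as the difference of log2(CPM + 10) in each library, and a gene was counted when it was at least 2-fold apart in the same direction in all 4. Of the 8 genes, 3 were higher in neutrophils (Nlrp3, Casp4 and Gsdme), against 4.02% of 10000 genes with at least 5 CPM in either gate, and 1 was lower (Pycard), against 10.7%. Nlrp3 differed by 1.22 to 3.94 on the log2 scale, Casp4 by 1.46 to 1.83 and Gsdme by 1.10 to 2.34. Pycard differed by -2.22 to -1.38. Aim2 was higher in 3 of 4 libraries (0.80, 2.08 and 1.54) and not in library 1 (-0.21). Casp1 and Gsdmd were lower in neutrophils in each library but did not reach 2-fold in any, with differences of -0.58 to -0.06 and -0.75 to -0.08. Naip5 differed by -0.72 to -0.44, but its macrophage level (7.65 to 9.50 CPM) lay under the added 10 CPM, so it could not reach 2-fold. The same holds for any gene under 10 CPM in both gates. Such genes are among the 10000, which lowers the shares of 4.02% and 10.7%, and by how much was not tested. Without the added 10 CPM, macrophages exceeded neutrophils in Naip5 by 2.45-fold to 10.6-fold, from few UMIs. The median difference of the 8 genes, averaged over libraries, was 0.38, beside -0.46 over all genes tested.

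**Figure D2:**
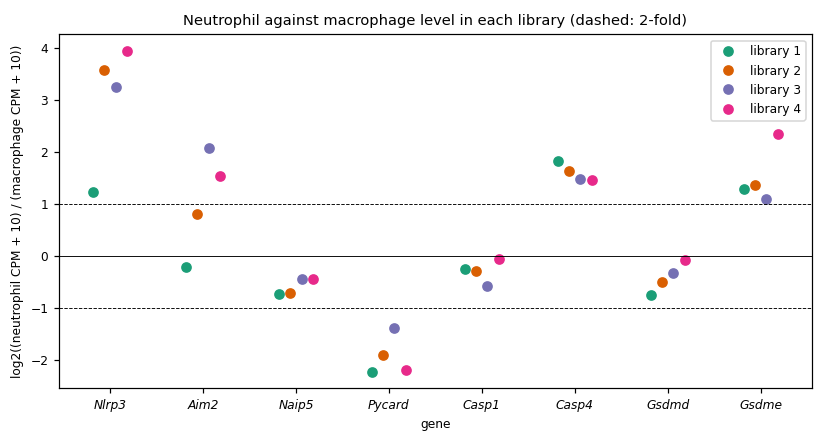
Difference between the neutrophil and the macrophage gate in each library, as log2((neutrophil CPM + 10)/(macrophage CPM + 10)), with dashed lines at 2-fold. All 4 libraries lie above the upper line for Nlrp3, Casp4 and Gsdme and below the lower line for Pycard, and Aim2 lies on both sides of 0.

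The rest of the pathway list held 40 genes, of which 26 reached 5 CPM. By the same count 7 were higher in neutrophils (Nlrp12, Mefv, Il1b, Il1rn, Tlr4, Gbp2 and Gbp5), 2 were lower (P2rx7 and Irf8) and 17 were neither. Over all genes tested the shares were 4.02% higher and 10.7% lower. The list, like the 8 genes, was chosen with earlier results of these data known, so these counts are descriptions. Il1b, the main cytokine matured by caspase-1, was at 14103 CPM in neutrophils, 1862 in macrophages and 843 in monocytes. Il1rn, its receptor antagonist, was at 1242 CPM in neutrophils and 169 in macrophages. Mefv, which encodes the sensor pyrin, was at 206 against 17.1 CPM, and Tlr4, the lipopolysaccharide receptor that primes Nlrp3 transcription, at 167 against 27.2 CPM. P2rx7, the ATP-gated channel that triggers NLRP3, was at 8.67 CPM in neutrophils and 34.5 in macrophages. Il18, the other caspase-1 cytokine, was at 163 CPM in monocytes, 47.5 in neutrophils and 46.3 in macrophages. Il1a was at 746 CPM in neutrophils and 137 in macrophages, with the difference ranging from -0.35 to 4.36 on the log2 scale over libraries. Ninj1, which ruptures the membrane after the pores have opened, was at 762 CPM in neutrophils and 374 in macrophages and did not pass the count.

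**Figure D3:**
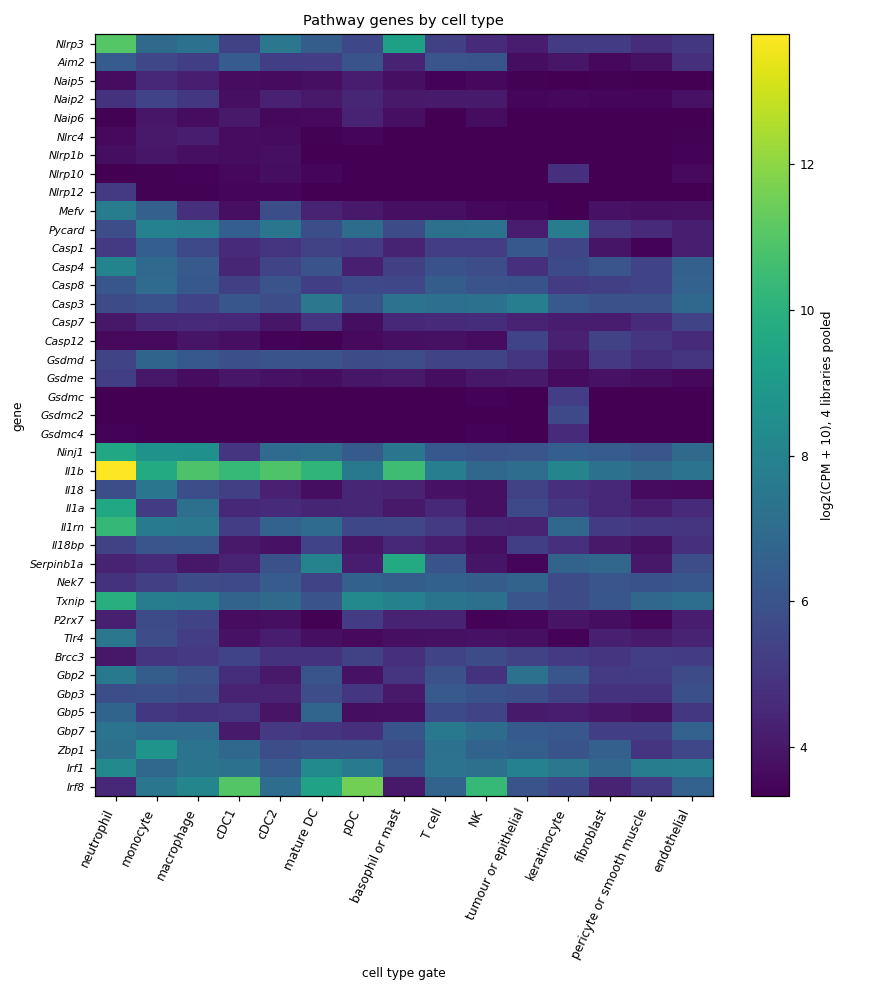
Level of the pathway genes that reached 5 CPM in at least 1 gate, as log2(CPM + 10) over the 4 libraries pooled, by cell type gate. Neutrophils show the highest Nlrp3 and Il1b, monocytes the highest Il18, and the Gsdmc genes stand out in the keratinocyte gate alone.

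Counted per cell, the order changed, because neutrophils held a median of 1813 UMIs against 7910 in monocytes and 7214 in macrophages. Pooled over libraries, a neutrophil held on average 4.13 Nlrp3 UMIs, against 1.19 in a macrophage and 0.910 in a monocyte. In library 1 this order was reversed, at 0.663 per neutrophil, 1.47 per macrophage and 1.32 per monocyte. In libraries 2 to 4 neutrophils held the most of the 3 gates, at 5.46, 5.02 and 1.81. The other genes are given pooled. Casp4 came to 0.517 UMIs per neutrophil and 0.543 per macrophage, with 1.73 per fibroblast as the highest. Pycard came to 0.0932 UMIs per neutrophil, 1.76 per macrophage and 1.85 per monocyte. Gsdmd came to 0.0692, 0.523 and 0.744, and Casp1 to 0.0495, 0.327 and 0.624. Monocytes did not lead these 3 genes per cell. The highest were keratinocytes for Pycard (2.22), cDC1 for Gsdmd (0.761) and tumour cells for Casp1 (1.38). Tumour cells also led Gsdme (0.147, against 0.0581 per neutrophil), cDC1 led Aim2 (1.14, against 0.147 per neutrophil), and monocytes led Naip5 (0.106). Nlrp3 was the only one of the 8 whose pooled leading gate was neutrophils by both measures, though not per cell in library 1.

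The components were rarely captured in the same neutrophil. UMIs of Nlrp3, Pycard, Casp1 and Gsdmd were found together in 7 of 9033 neutrophils (0.0775%, exact Clopper-Pearson 95% interval 0.0312 to 0.160), in 291 of 4177 monocytes (6.97%, 6.21 to 7.78) and in 271 of 3659 macrophages (7.41%, 6.58 to 8.30). Among the 7041 neutrophils with an Nlrp3 UMI, 83.7% had no UMI of the other 3 genes, against 14.0% of such monocytes and 22.0% of such macrophages. With each cell thinned to 1000 UMIs these shares were 91.9%, 75.4% and 78.1%, so the gap was much smaller at equal depth. The gates differ in depth, and no cell of the 3 gates held all 4 genes after this thinning. That allows a share of up to 0.0356% in neutrophils, 0.0734% in monocytes and 0.0864% in macrophages when 3 cells are taken as the limit of a count of 0. The exact Clopper-Pearson upper bounds were 0.0437%, 0.0902% and 0.106%. With a count of 0 in each gate, the joint share could not be compared at equal depth, but single genes could. At 1000 UMIs a Pycard UMI was found in 3.31% of the neutrophils with Nlrp3, 14.7% of the monocytes with Nlrp3 and 15.6% of the macrophages with Nlrp3, whereas a Casp4 UMI was found in 21.2%, 12.9% and 5.42%.

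**Figure D4:**
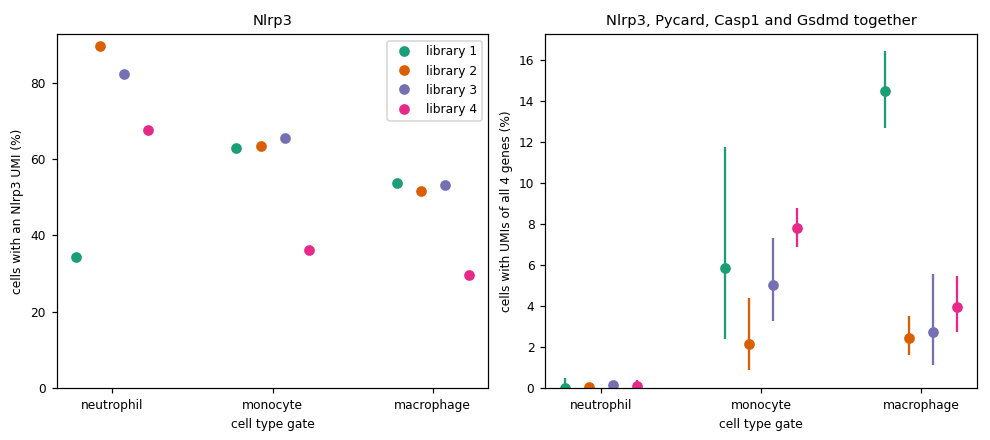
Share of cells with an Nlrp3 UMI (left) and with UMIs of Nlrp3, Pycard, Casp1 and Gsdmd together (right), in percent, by gate, for each library, without thinning. Bars on the right are exact 95% binomial intervals. Neutrophils reach 89.7% for Nlrp3 in library 2 and at most 0.127% for the 4 genes together.

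Within the neutrophil gate the levels differed with interferon-induced UMIs. Neutrophils in the top 25% of each library by the share of UMIs of Ifit1, Ifit3, Isg15 and Rsad2, all interferon-induced, were set against neutrophils with none of these UMIs, a split chosen after the values were seen. Casp4 stood at 305, 395, 327 and 335 CPM in the top 25% and at 98.0, 237, 231 and 106 CPM in cells with none, and was higher in each library, by 1.41-fold to 3.16-fold. Casp1 stood at 53.7, 35.0, 48.7 and 72.5 CPM against 26.1, 6.76, 10.4 and 12.9, and was 4.68-fold to 5.63-fold higher in libraries 2 to 4. In library 1 the Casp1 ratio was 2.05, with an interval that reached up to 5.54 and held 1. Aim2 and Pycard were lower in the top 25% in libraries 2 to 4, at 0.547 to 0.653 and 0.435 to 0.625 of the level in cells with none, and their intervals in library 1 held 1. Nlrp3 ratios lay between 0.843 and 1.42. The Gsdmd interval excluded 1 in library 1 alone, and narrowly, at 2.26 (1.03 to 5.34).

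**Figure D5:**
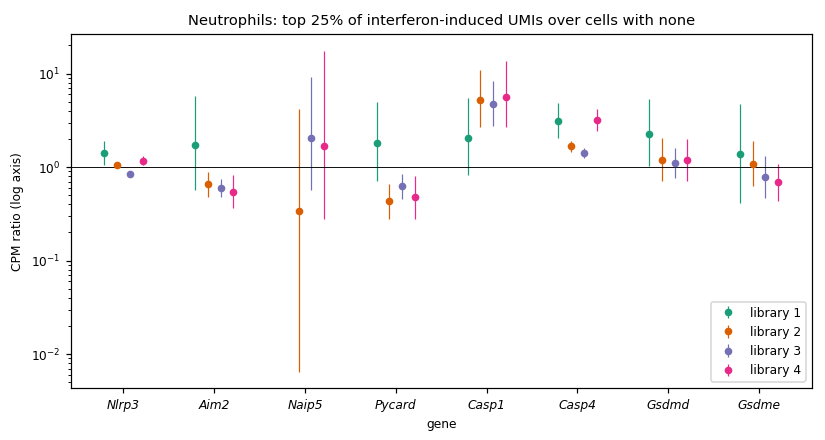
Ratio of the CPM in neutrophils of the top 25% of interferon-induced UMIs to that in neutrophils with none (log axis), for each gene and library, with exact 95% conditional intervals. Casp4 lies above 1 in each of the 4 libraries, between 1.41 and 3.16. Naip5 of library 1, with no UMI in either set, is not drawn.

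Neutrophils with a Retnlg UMI and no Cd274 UMI were also set against those with Cd274 and no Retnlg. Casp4 was lower in the former in every library (139, 227, 224 and 172 CPM against 299, 337, 311 and 322). Nlrp3 was 209 against 510 CPM in library 1 but 2693 against 2687 in library 2, 2333 against 2294 in library 3 and 1001 against 982 in library 4, so the lower Nlrp3 of the Retnlg cells was seen in library 1 alone. Aim2 is given for library 1 alone, at 6.41 against 71.8 CPM, the lower value from few UMIs. No pattern over libraries can be read from it. Gsdme was higher in the former in each library, at 23.5, 27.5, 27.7 and 61.2 CPM against 3.99, 13.7, 16.3 and 36.7. The 3.99 CPM of library 1 rests on few UMIs. Retnlg is itself a marker used by the neutrophil gate, as Chil3 is by the monocyte gate. Among mononuclear phagocytes, macrophages with a Cd163 UMI held Casp4 at 93.3, 93.3 and 70.5 CPM in libraries 2 to 4, against 69.5, 78.2 and 65.6 CPM in those with Arg1 and no Cd163. Monocytes with a Chil3 UMI held Gsdmd at 100.4, 71.8 and 102 CPM in libraries 2 to 4, against 51.1, 69.1 and 89.3 CPM in those without. The gap was small in some libraries, as for Gsdmd in library 3 and Casp4 in library 4. The Cd163 and Chil3 splits are given for a single gene each, without library 1.

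The genes whose profile was nearest to each of the 8 were found over the same 31 profiles, among 11038 genes reaching 20 CPM in at least 1 profile. For Nlrp3 they were Il1rn, Arg2 and Cxcl2 (r 0.95, 0.95 and 0.94), for Casp4 Rtp4, Xylt1 and Slc16a3 (0.88, 0.87 and 0.86), and for Casp1 Ifi35, B2m and Tap1 (0.85, 0.82 and 0.81). For Pycard they were Fermt3, Ucp2 and Otulinl (0.90, 0.90 and 0.88), for Gsdmd Cyba, Fuca1 and Man2b1 (0.84, 0.82 and 0.80), for Aim2 Lcp1, Selplg and Nfkbid (0.90, 0.90 and 0.89), and for Naip5 Rassf4, Trim30d and Mpeg1 (0.91, 0.90 and 0.89). Gsdme was nearest to Slc22a20, AC132455.2 and AC103947.2 (0.95, 0.94 and 0.94). Among the 8 genes themselves the closest pair was Nlrp3 and Casp4 (0.74), and Pycard with Gsdme gave -0.13.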

How the data were processed

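The authors deposited a matrix of UMI counts per gene and barcode, not scaled per cell, made with Cell Ranger and joined over 4 libraries. The design text names version 3.0.2, the processing notes name 2.1.1 with build mm10, and the file header names 6.1.2. The design text states 15603 cells after filtering; the files hold 33064 barcodes, and the stated filter (300 genes, 15% mitochondrial UMIs) leaves 32133. All identifiers were matched to GENCODE vM21 for coordinates (GRCm38).

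Each cell was scored for 16 marker lists as the mean share of each marker's 97th percentile level, and gated where the best score was at least 0.2, at least 2 markers had a UMI and the score was at least 1.3 times the next. Of the kept cells, 2608 missed the last rule. Doublets were kept in the main analysis, and an alternative left out the highest 5% of Scrublet scores. CPM, shares and their exact 95% intervals cover counting error only. Thinning drew 1000 UMIs per cell without replacement and left out 1890 shallower cells. The genes named are the 8 members, the pathway genes counted in every library, the released cytokines and other gasdermins, markers, and the 3 genes nearest to each member; splits inside a gate (interferon-induced genes, Retnlg and Cd274, Cd163 and Arg1, Chil3) and the S100a8 scale were added after values were seen. The members and lists were chosen with earlier results of these data known. Clusters (Leiden, 2000 variable genes, 30 components, 20 neighbours, resolution 1, seed 1, without the members) served as an alternative. Python 3.11.15, scanpy 1.11.5, numpy 2.4.6 and scipy 1.17.1 were used.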

Additional observations from a re-analysis of the deposited data

Results flagged for a closer look

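Over the 4 libraries, 2 values stood far from the other 3 by Dixon's criterion, among 40 combinations of gene and gate with at least 50 cells in each library, where chance flags about 1 in 20, or 2. Gsdme in neutrophils of library 4 was at 60.0 CPM (95% interval 52.2 to 68.5, 216 UMIs), against 20.7 to 21.6 CPM in the others. Casp1 in fibroblasts of library 1 was at 26.6 CPM (21.0 to 33.1, 79 UMIs), against 3.15 to 6.08 CPM in the others.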

How the results depend on the processing

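The count of genes highest in neutrophils (4) was 3 or 4 under the other filters, gates and libraries left out, and 1 (Nlrp3) by UMIs per cell, a measure added after seeing the data. The count higher than in macrophages in every library (3) was 2 with Leiden clusters (without Gsdme) and 0 by UMIs per cell. The count lower (1) was 2 with a pseudocount of 1 CPM, which added Naip5, and 3 by UMIs per cell (Pycard, Casp1 and Gsdmd). The count with the same leading gate in every library (5) was 3 with Leiden clusters, 3 when thinned, 4 with a stricter gate (best score at least 2 times the next) and 0 by UMIs per cell. Gsdmd dropped out under each of these. Leaving out a library gave 3 to 4, 3 to 3, 1 to 1 and 5 to 6 for these counts in that order. By UMIs per cell the pooled difference between neutrophils and macrophages turned from above 0 to -0.064 for Casp4 and -0.54 for Aim2. Of 96 recomputed differences of this kind, over the 8 genes and all alternatives that bear on them, 94 kept their direction and 61 lay within the 95% counting interval of the reported value. Of 88 recomputed shares of neutrophils with a UMI, 49 lay within theirs. Without library 3, and when thinned, the leading gate of Aim2 was cDC1, and without library 4 that of Casp1 was the tumour gate and that of Pycard the keratinocyte gate. No paired analysis was possible because no suffix is tied to a sample. Depth limits the joint detection of several genes in neutrophils.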
